A study of Homo sapiens with 10 samples.

Results

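Expression of BRCA2 and 8 of its recombination partners was followed in PEO1 ovarian cancer cells and in 4 clones of that line kept on a PARP inhibitor. The set held BRCA2, BRCA1, PALB2, BARD1, SHFM1, RAD51B, RAD51C, RAD51D and XRCC3, taken by symbol as 9 of the 25370 genes in the deposited count table. All 9 had enough reads to be tested, among 16490 tested genes. PEO1 is an established line from a patient with ovarian cancer that carries a premature stop codon in BRCA2, and the study asked how BRCA2 function returns in cells that no longer respond to PARP inhibition.

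Each of the 4 groups ABTr1, ABTr2, ABTr3 and ABTr4 was 1 veliparib-resistant clone of PEO1, held in 40 uM veliparib (ABT888), an inhibitor of the DNA damage sensor PARP, for 6 months. The clones were taken off the drug 4 to 5 days before RNA was collected, so the values describe resistant cells after a short time without drug. The parental PEO1 cells carry the label WT for genotype and Parental for treatment. Every group had 2 polyA RNA-seq libraries, numbered 1 and 2, which gave 10 libraries in all. The labels do not say whether the 2 libraries of a group came from separate cultures, and the p-values then reflect only how far these libraries vary, which may be technical. Clones are named here by library title, since the descriptions number them differently. Each library held 20640602 to 55488566 counted reads.

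Homologous recombination repairs broken or stalled DNA by copying the sister chromatid. BRCA1 and its partner BARD1 act early and help to bring in PALB2, PALB2 carries BRCA2 to the break, and BRCA2 works there with the small acidic protein DSS1, the product of SHFM1, on resected single-stranded DNA. The paralogues RAD51B, RAD51C, RAD51D and XRCC3 act in the same step, in strand exchange. Cells that lack this pathway are sensitive to PARP inhibitors, and regained recombination is a known route to resistance.

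The promoters of the 2 genes whose mean over the clones differed from PEO1 in at least 1 of the fits given further on, BRCA2 and SHFM1, are shown from RefSeq (build GRCh38.p14), from 250 bases before to 50 bases after the listed start. Capitals mark the E-box CACGTG and the cAMP response element half-site TGACG on either strand (CGTCA on the strand shown). The BRCA2 window is chr13:32315258-32315557 on the plus strand, and the SHFM1 window, listed as SEM1, is chr7:96709797-96710096 on the minus strand. For SHFM1 it is the first of 3 listed windows, and the others were not searched.
BRCA2: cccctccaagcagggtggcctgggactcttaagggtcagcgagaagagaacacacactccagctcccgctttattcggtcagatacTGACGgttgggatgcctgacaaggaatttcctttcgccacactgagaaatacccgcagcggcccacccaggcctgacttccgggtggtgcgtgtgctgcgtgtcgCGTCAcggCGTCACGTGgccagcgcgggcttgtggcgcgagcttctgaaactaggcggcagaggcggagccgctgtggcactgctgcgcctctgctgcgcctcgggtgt
SHFM1: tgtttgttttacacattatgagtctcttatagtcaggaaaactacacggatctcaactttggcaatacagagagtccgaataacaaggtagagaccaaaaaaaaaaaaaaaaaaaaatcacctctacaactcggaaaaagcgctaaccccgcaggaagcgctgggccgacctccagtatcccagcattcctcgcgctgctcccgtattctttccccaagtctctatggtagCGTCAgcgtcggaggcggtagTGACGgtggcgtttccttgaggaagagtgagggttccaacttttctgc
The BRCA2 window held 1 E-box and 3 half-sites, the last of which ran into the E-box, and the SHFM1 window held 2 half-sites and 0 E-boxes. Of 27305 RefSeq promoter windows of this length, 7.43% held the E-box and 25% the half-site. CCAAT, present in 35.7% of windows, and GGGCGG, present in 44.6%, were searched on both strands and found in neither. These matches describe letters only.

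BRCA2 (hg19 chr13:32889617-32973809, plus strand, 11386 exonic bases) acts at resected DNA ends ahead of strand exchange. It had 37.2 and 14.2 CPM (TMM-scaled counts per 1e6 reads, replicates 1 and 2) in ABTr1 and 59.8 and 10.7 CPM in ABTr2. It had 76.9 and 28.3 CPM in ABTr3 and 43.8 and 18.0 CPM in ABTr4, against 19.02 and 5.80 CPM in PEO1. The ranges of clones and parental cells overlapped, because PEO1 replicate 1 lay above the second library of ABTr1, ABTr2 and ABTr4. Within each replicate number, with 1 PEO1 library each, all 4 clones lay above PEO1. The excess was 1.96- to 4.04-fold among replicates 1 and 1.84- to 4.87-fold among replicates 2. BRCA1, SHFM1 and RAD51D also kept to a single side of PEO1 at both numbers. Over all tested genes this was not counted. Fully separate ranges, in either direction, were seen for 27.0% and meet it too, so the full share is at least that. Whether the members keep to 1 side more often than other genes is therefore not known. BRCA2 averaged 36.1 ± 11.6 CPM over the clones (SD of 4 clone means) and 12.4 ± 9.34 CPM in PEO1 (SD, n = 2 libraries), from 150 to 4015 reads a library. In bulk libraries, fewer cells with a transcript and less of it per cell cannot be told apart.

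The call for BRCA2 depended on whether the replicate number entered the fit. With group means alone, the mean of the clones exceeded PEO1 by 1.49 on the log2 scale (SE 0.80), and edgeR's quasi-likelihood test gave an adjusted p of 0.2495. Same-numbered libraries of different groups deviated together, and with the number as a block the difference was 1.51 (SE 0.25, edgeR adjusted p = 0.00132). The blocked fit also called BRCA2 in each clone, where it called 30.1% of tested genes in ABTr1, 22.1% in ABTr2, 22.6% in ABTr3 and 27.0% in ABTr4. BRCA2 was then 1.13 higher on the log2 scale in ABTr1 (SE 0.29), 1.34 in ABTr2 (SE 0.29), 2.15 in ABTr3 (SE 0.29) and 1.42 in ABTr4 (SE 0.29), with edgeR adjusted p-values of 0.0152, 0.0096, 8.8e-04 and 0.0057 in that order. These contrasts share the 2 PEO1 libraries. Without the block none of the 4 passed, and the edgeR adjusted p-values lay between 0.2356 and 0.5044. Left out of the unblocked fit, PEO1 replicate 1 moved the mean difference to 2.55 and PEO1 replicate 2 moved it to 0.87.

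**Figure D1:**
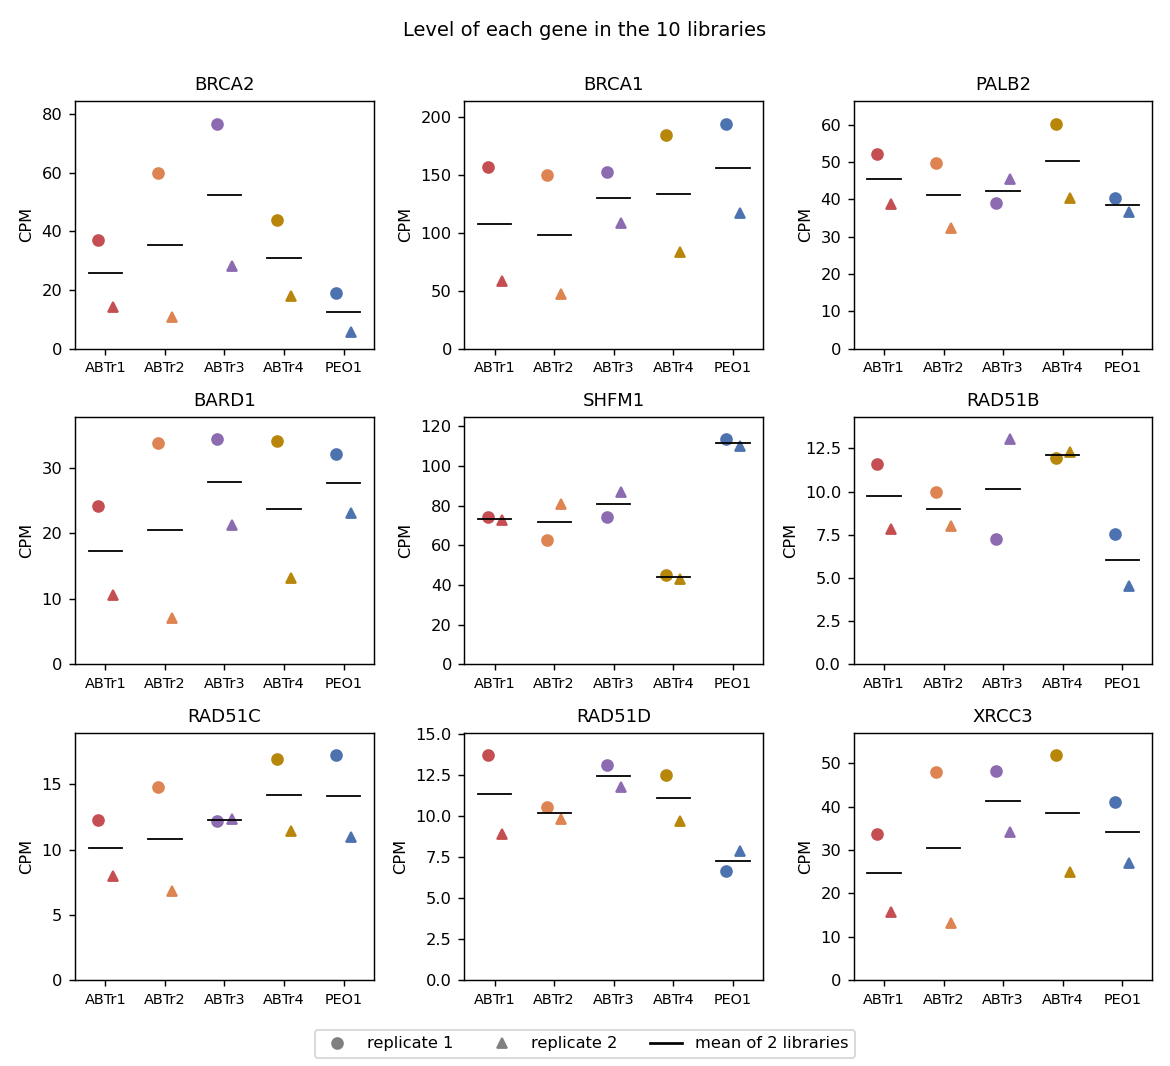
Level of the 9 genes in CPM (linear axis from 0) in the libraries of ABTr1 to ABTr4 and PEO1; circles are replicate 1, triangles replicate 2 and lines the mean of 2 libraries. BRCA2 is above PEO1 in every clone at the same replicate number, SHFM1 lies below PEO1 in all 8 clone libraries, and RAD51D lies above it in all 8.

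Proliferation genes differed between replicate numbers in the same direction as BRCA2. Replicate 1 exceeded replicate 2 for BRCA2 in 5 of 5 groups, by 2.44- to 5.60-fold. A list of 20 S phase and proliferation genes summed to 4240, 5104, 5895 and 5632 CPM in replicate 1 of ABTr1 to ABTr4, against 6168 CPM in PEO1 replicate 1. In replicate 2 the sums were 2036, 1718, 4101 and 2909 CPM, against 2944 CPM in PEO1. The sums of the clones were below the PEO1 sum of the same number except in ABTr3 replicate 2. BRCA2 was above PEO1 in every clone at the same number. Among the clones, ABTr3 had both the highest sum and the highest BRCA2 at each number. The 4 clones ranked alike by sum and by BRCA2 in replicate 2, but not in replicate 1. In the unblocked fit 0 of the 20 genes passed in either direction, against 16.0% of all tested genes. The blocked fit called 1 higher and 4 lower, where it called 16.3% of all tested genes higher and 18.2% lower. The higher one was TYMS, at 0.68 (SE 0.22, edgeR adjusted p = 0.0368). MKI67, the Ki-67 proliferation antigen, was among those lower, at -0.96 (SE 0.19, edgeR adjusted p = 0.0038). The part of proliferation in the BRCA2 difference was not tested.

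The difference between replicates rose with gene length over all tested genes, and only in part among the members. XRCC3, with 2639 exonic bases, had a larger difference than PALB2, with 4058. Replicate 1 exceeded replicate 2 by a mean of 1.66 on the log2 scale for BRCA2, the longest of the 9, by 1.20 for BARD1, by 1.09 for BRCA1 and by 1.03 for XRCC3. The difference was 0.59 for RAD51C, 0.31 for PALB2, 0.20 for RAD51D, 0.15 for RAD51B and -0.09 for SHFM1, the shortest with 498 exonic bases. Over all tested genes the median of this difference was -0.21 for genes under 1 kb and 0.15 for those over 8 kb. The part of length in the BRCA2 values was not tested beyond an offset. With a length offset in the unblocked fit BRCA2 was 1.48 higher in the clones (SE 0.75, edgeR adjusted p = 0.2124).

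**Figure D2:**
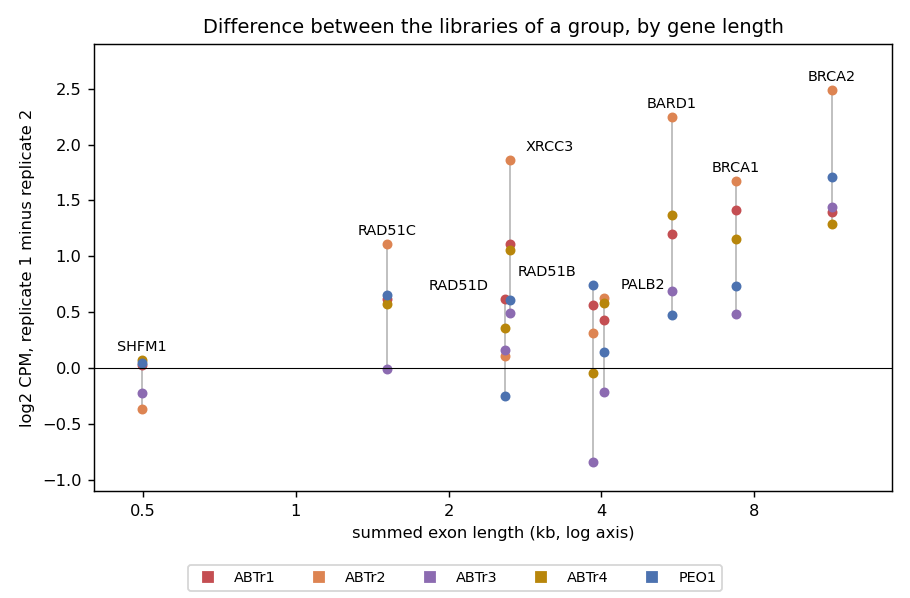
Log2 CPM of replicate 1 minus replicate 2 in each of the 5 groups (points) against summed exon length (log axis) for the 9 genes; grey lines join the lowest and highest group. BRCA2, BRCA1, BARD1 and XRCC3 are above 0 in all groups, and SHFM1 has the lowest mean at -0.09.

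SHFM1 (hg19 chr7:96318079-96339203, minus strand) fell in the clones and was the 1 member of 9 to pass without the block, where 16.0% of tested genes passed in either direction. It had 74.0 and 72.7 CPM in ABTr1, 62.8 and 80.9 CPM in ABTr2 and 74.5 and 87.2 CPM in ABTr3. It had 45.2 and 43.1 CPM in ABTr4, against 113 and 109.96 CPM in PEO1. Every clone library lay below both PEO1 libraries, and ABTr4 lay below the other clones. The mean of the clones differed from PEO1 by -0.76 on the log2 scale (SE 0.16, edgeR adjusted p = 0.0167), and by -0.77 with the block (SE 0.14, edgeR adjusted p = 0.00227), where 34.6% of genes passed. The unblocked call was lost without PEO1 replicate 1 (edgeR adjusted p = 0.0604) or without PEO1 replicate 2 (0.0949), with differences of -0.78 and -0.79.

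Among single clones, SHFM1 passed in ABTr4 at -1.34 (SE 0.22, edgeR adjusted p = 0.0102), where 9.71% of genes passed. Its differences were -0.61 in ABTr1, where 9.77% of genes passed, -0.64 in ABTr2 (6.11% of genes) and -0.47 in ABTr3 (7.37% of genes), with edgeR adjusted p-values of 0.1187, 0.1272 and 0.2485. With the block the adjusted p-values were 0.0328 in ABTr1, 0.0327 in ABTr2, 0.0948 in ABTr3 and 8.4e-04 in ABTr4. The ABTr4 value did not pass without ABTr4 replicate 1 or without ABTr4 replicate 2, at edgeR adjusted p-values of 0.0652 and 0.0782, nor with only the 2 groups compared (0.0671). DESeq2 called SHFM1 in ABTr1 and ABTr2 as well (adjusted p = 0.0389 and 0.0377), and the block with a length offset called it in ABTr3 (edgeR adjusted p = 0.0317). A test over all 4 clones gave an edgeR adjusted p of 0.8426 for SHFM1, and of 0.1006 with the block, so ABTr4 was not shown to differ from the other clones. No member passed that test, which 0.00606% of genes passed without the block and 0.843% with it.

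BRCA1 and BARD1, the 2 ubiquitin ligase subunits that act ahead of BRCA2, did not pass in any clone. BRCA1 (hg19 chr17:41196312-41277500, minus strand) had 157 and 58.8 CPM in ABTr1, 150 and 47.0 CPM in ABTr2, 152 and 109 CPM in ABTr3 and 185 and 83.1 CPM in ABTr4, against 194.5 and 117 CPM in PEO1. All 4 clones were below PEO1 at each replicate number, yet the ranges overlapped, and the mean difference was -0.42 (SE 0.50, edgeR adjusted p = 0.6208) or -0.49 with the block (SE 0.21, edgeR adjusted p = 0.087). BARD1 (hg19 chr2:215590370-215674435, minus strand) ranged from 7.10 to 34.3 CPM in the clones, with a median of 22.7 CPM, against 23.1 and 32.1 CPM in PEO1. The parental values lay within the range of the clones, and the mean difference was -0.33 (SE 0.56, edgeR adjusted p = 0.74).

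PALB2 (hg19 chr16:23614483-23652678, minus strand), the link between BRCA1 and BRCA2, did not pass in any clone. It had 52.3 and 38.8 CPM in ABTr1, 49.9 and 32.4 CPM in ABTr2, 39.1 and 45.4 CPM in ABTr3 and 60.3 and 40.4 CPM in ABTr4, against 40.5 and 36.6 CPM in PEO1. Clones and PEO1 overlapped. The mean difference was 0.21 (SE 0.25, edgeR adjusted p = 0.61), and the ratio of a clone to PEO1 was 0.97 to 1.49 among replicates 1 and 0.89 to 1.24 among replicates 2.

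RAD51D (hg19 chr17:33426811-33446888, minus strand) was the only paralogue whose clone libraries all stood clear of PEO1. It had 13.7 and 8.92 CPM in ABTr1, 10.5 and 9.81 CPM in ABTr2, 13.1 and 11.7 CPM in ABTr3 and 12.5 and 9.70 CPM in ABTr4, against 6.62 and 7.85 CPM in PEO1. Such separation, in either direction, was seen for 2 of the 9 members, RAD51D and SHFM1, and for 27.0% of all tested genes. The mean difference of RAD51D was 0.63 (SE 0.25) and did not pass (edgeR adjusted p = 0.13, and 0.0531 with the block). Of its exonic bases, 16.4% are shared with the readthrough gene RAD51L3-RFFL, for which 0 reads are listed.

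RAD51B (hg19 chr14:68286496-69062738, plus strand), which works in a complex with RAD51C, RAD51D and a further paralogue, had 11.6 and 7.84 CPM in ABTr1, 9.96 and 8.02 CPM in ABTr2, 7.28 and 13.0 CPM in ABTr3 and 11.9 and 12.3 CPM in ABTr4, against 7.56 and 4.53 CPM in PEO1. Replicate 1 of ABTr3 was the single clone library at or below PEO1 replicate 1. The mean difference was 0.75 (SE 0.33, edgeR adjusted p = 0.164, and 0.0757 with the block). RAD51C (hg19 chr17:56769934-56811703, plus strand), the paralogue common to both paralogue complexes, ranged from 6.86 to 16.97 CPM in the clones against 10.9 and 17.2 CPM in PEO1, with a mean difference of -0.26 (SE 0.34, edgeR adjusted p = 0.65). XRCC3 (hg19 chr14:104163954-104181823, minus strand), its partner in the smaller complex, ranged from 13.2 to 51.8 CPM in the clones against 27.0 and 41.1 CPM in PEO1. Its mean difference was -0.04 (SE 0.50, edgeR adjusted p = 0.97), and ABTr1 lay below and ABTr3 above PEO1 at both replicate numbers. The difference between those 2 clones was -0.74 (SE 0.63, edgeR adjusted p = 0.7929).

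**Figure D3:**
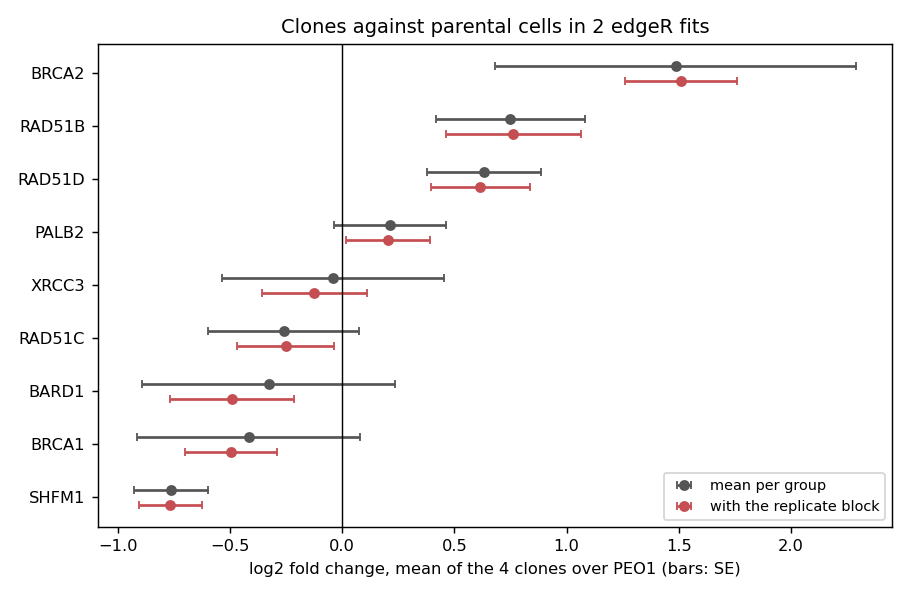
Log2 fold change of the mean of the 4 clones over PEO1 with its SE, from edgeR with group means only (grey) and with the replicate number as a block (red). BRCA2 is highest at 1.49 and 1.51 with a smaller SE under the block, and SHFM1 lowest at -0.76 and -0.77.

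As a set, the members did not shift in one direction. Over the 9 the median difference between the clones and PEO1 was -0.04 on the log2 scale, against 0.02 over all tested genes, and 4 of 9 were above 0. With the block the member median was -0.12, against 0.02, with BRCA2 called higher and SHFM1 lower.

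Per exonic length, the order of the 9 transcripts was led by SHFM1 in all 10 libraries, with 86.5 to 175 RPKM (CPM per kilobase) in the clones and 221 to 228 RPKM in PEO1. BRCA1 followed in PEO1, at 15.9 and 26.4 RPKM. BRCA2 was the lowest of the 9 in both PEO1 libraries, at 1.67 and 0.510 RPKM. In the clones it had 0.938 to 6.75 RPKM, ranked 6 to 9 of 9, and was last in 4 of 8 libraries, the other 4 having RAD51B last. The lowest places were close, with RAD51B at 2.66 ± 0.35 RPKM and BRCA2 at 3.17 ± 1.02 RPKM over the clones (SD, n = 4 clones).

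The level of BRCA2 relative to each partner was compared within libraries, which removes library size. BRCA2 stood at 0.140 to 0.327 of the BRCA1 level per length in the clone libraries, against 0.0632 and 0.0321 in PEO1. The log2 ratio of BRCA2 to BRCA1 was 1.99 higher in the clones, and the groups did not overlap (exact two-sided permutation test over 45 choices of libraries, p = 0.0222, the smallest they can give, adjusted p = 0.0444 over 8 partners). The same separation and p-values were found against BARD1, by 1.98, against RAD51C, by 1.76, and against XRCC3, by 1.63. Against SHFM1 the ratio was 2.26 higher, with 1 clone library, ABTr2 replicate 2, below the higher PEO1 value (exact permutation p = 0.0444, adjusted 0.0711). Against PALB2 it was 1.30 higher (exact permutation p = 0.1556, adjusted 0.2074), against RAD51D 0.87 (p = 0.3333, adjusted 0.381) and against RAD51B 0.72 (p = 0.4, adjusted 0.4). Within each replicate number the ratio in all 4 clones lay above that in PEO1 against every partner but RAD51D. The 2 libraries of a clone are not independent cultures of separate clones, yet the test over 45 choices took all libraries as exchangeable. Its p-values thus count each clone more than once. The ratios to the 8 partners use the same BRCA2 values, so the separations are not separate results. With labels permuted only within a replicate number, the exact permutation test gave an adjusted p of 0.0533 for PALB2 and SHFM1. It gave the same value for the 4 called partners, BRCA1, BARD1, RAD51C and XRCC3, which were thus not set apart from PALB2 and SHFM1. These 4 calls were lost in each test that left out 1 library except without ABTr2 replicate 2. The adjusted p was 0.0556 to 0.0889 without 1 of the other clone libraries, 0.127 without PEO1 replicate 1, and 0.2963, or 0.4444 for RAD51C, without PEO1 replicate 2. Fewer libraries allow fewer choices, which raises the smallest p. The 4 partners with separated groups are also the 4 with the largest mean excess of replicate 1 over replicate 2, of 0.59 to 1.20 on the log2 scale, and the part of that shared shift was not tested.

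**Figure D4:**
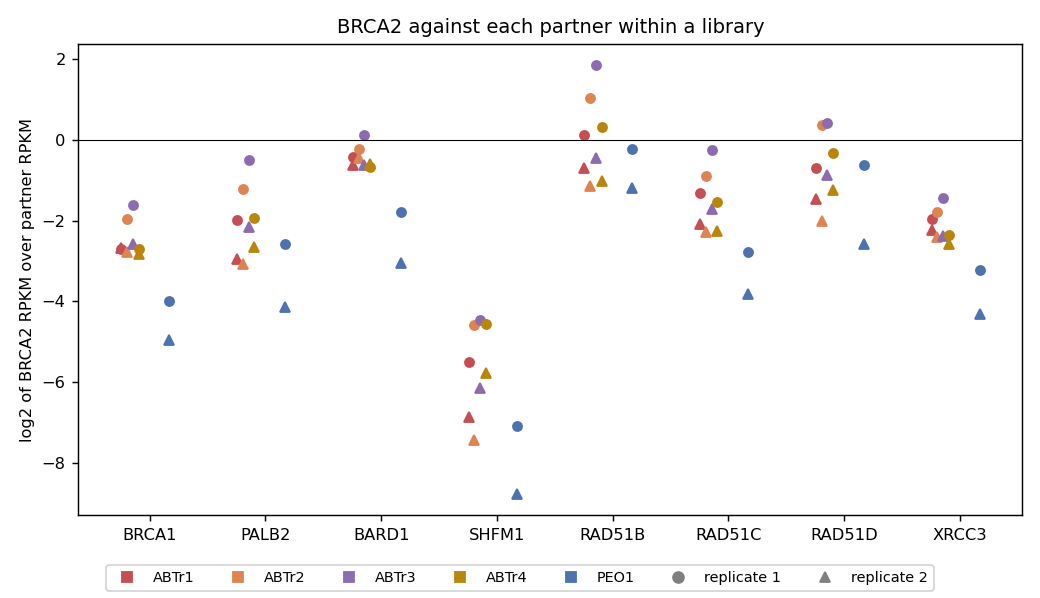
Log2 of the BRCA2 RPKM over the RPKM of each partner within a library, with clones to the left and PEO1 to the right of each partner; circles are replicate 1 and triangles replicate 2. Against BRCA1, BARD1, RAD51C and XRCC3 all 8 clone libraries lie above both PEO1 libraries, and against the other 4 partners the groups overlap. At the same replicate number the clones lie above PEO1 against every partner but RAD51D.

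Likeness to BRCA2 over the 10 libraries was measured by the root mean square difference of centred log2 CPM and ranked among the 16490 tested genes. XRCC3 was nearest among the members at 0.76, ranked 715, followed by BARD1 at rank 1537, BRCA1 at 2037, RAD51D at 2091, RAD51B at 2637, RAD51C at 2708 and PALB2 at 2936. SHFM1 was farthest at 1.35, ranked 11701. The 5 tested genes most like BRCA2 were ALOXE3 at 0.26, MAMLD1 at 0.26, PLCXD2 at 0.30, ZNF878 at 0.34 and CRYM-AS1 at 0.38. ALOXE3 encodes an epidermal lipoxygenase, and none of the 5 is a repair gene of the lists used here.

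No gene around BRCA2 passed in the mean of the clones. Within 1 Mb, 0 of 9 tested neighbours passed in either fit, against 16.0% of all tested genes without the block and 34.6% with it. Their median difference was 0.06. They were B3GALTL at 0.50, FRY-AS1 at 0.11, FRY at -0.63, N4BP2L1 at 0.06, N4BP2L2 at -0.28, N4BP2L2-IT2 at 0.12, PDS5B at -0.07, STARD13 at -0.27 and STARD13-AS at 0.21, against 1.49 for BRCA2. N4BP2L1, which lies 1.1 kb beyond the end of BRCA2, was the nearest, and its SE of 1.01 was too wide to show whether it moved. With the block N4BP2L1 was at 1.36 in ABTr1 (SE 0.51, edgeR adjusted p = 0.068). There STARD13 fell (-0.63, edgeR adjusted p = 0.0456), where 30.1% of tested genes passed. In ABTr3 B3GALTL rose with the block (0.76, edgeR adjusted p = 0.0348), where 22.6% passed.

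SHFM1 did lie among lower neighbours. The median of 7 tested genes within 1 Mb was -0.81, next to -0.76 for SHFM1 itself, and 2 of 7 fell, against 8.79% of all tested genes. These were SLC25A13, a mitochondrial aspartate-glutamate carrier, at -1.16 (SE 0.31, edgeR adjusted p = 0.038) and DLX5, a homeobox gene, at -1.94 (SE 0.46, edgeR adjusted p = 0.0232). DYNC1I1 and LOC100506136 were above 0. With the block 4 of 7 fell and 1 rose, against 18.2% and 16.3% of tested genes, and the one that rose was DYNC1I1, a dynein chain, at 1.64 (SE 0.44, edgeR adjusted p = 0.0159). Without the block, 3 of 7 fell in ABTr4, where SHFM1 was lowest and 9.71% of tested genes passed in either direction. In each other clone 0 of 7 passed, against 9.77% of tested genes in ABTr1, 6.11% in ABTr2 and 7.37% in ABTr3. The median of the 7 was -1.31 in ABTr4, -0.53 in ABTr1, -0.81 in ABTr2 and -0.57 in ABTr3.

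The neighbours of the paralogues on chromosome 17 lay to opposite sides. Around RAD51C, 10 of 23 fell and 0 rose, against 8.79% of tested genes called lower, the median was -0.68 and 19 of 23 were below 0, beside -0.26 for RAD51C. Around RAD51D, 6 of 21 rose and 0 fell, against 7.17% of tested genes called higher, and the median was 0.49 beside 0.63 for RAD51D. Medians were 0.13 for 63 neighbours of BRCA1, 0.22 for 13 of PALB2, -0.04 for 6 of BARD1, -0.06 for 21 of RAD51B and 0.06 for 18 of XRCC3.

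**Figure D5:**
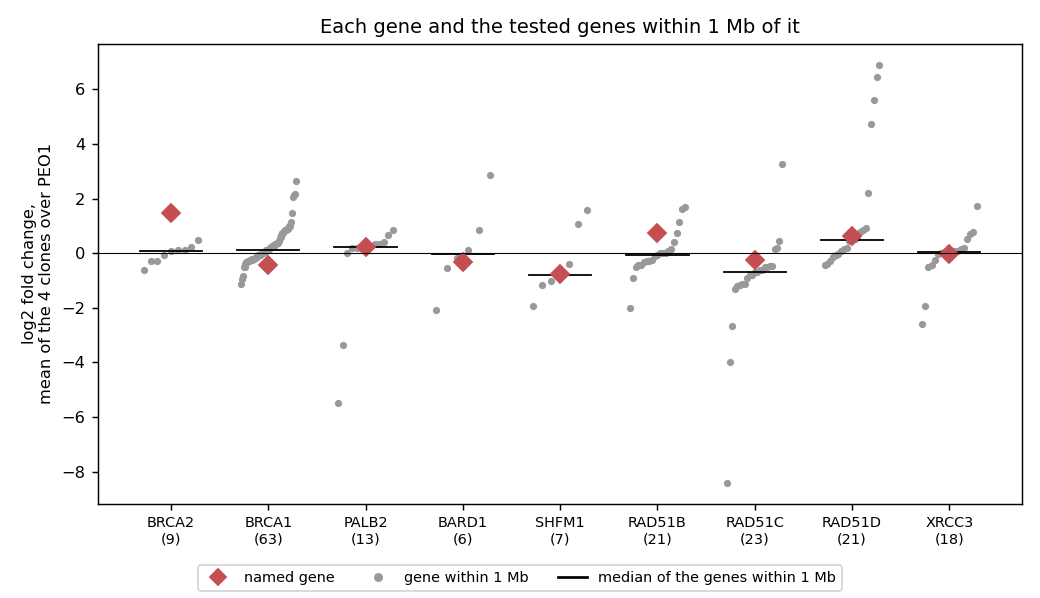
Log2 fold change of the mean of the 4 clones over PEO1 for each named gene (red diamonds) and for tested genes within 1 Mb of it (grey, sorted by value, number in parentheses), with their median as a line. BRCA2 lies above all 9 of its neighbours, while SHFM1 at -0.76 lies beside its neighbours' median of -0.81.

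Genes that act beside the members were read from lists. Of 16 genes of strand exchange, 2 rose and 0 fell, against 7.17% of tested genes called higher and 8.79% lower, and their median was 0.19, against 0.02 over all tested genes. They were SFR1 and SWI5, which form one accessory complex of strand exchange. SFR1 had 18.7 to 38.6 CPM in the clones, with a median of 29.1 CPM, against 8.36 and 11.4 CPM in PEO1, and was 1.51 higher (SE 0.30, edgeR adjusted p = 0.012). SWI5 had 18.8 to 34.7 CPM in the clones, with a median of 25.7 CPM, against 9.94 and 13.3 CPM in PEO1, and was 1.12 higher (SE 0.28, edgeR adjusted p = 0.0283). Neither pair of ranges overlapped, as for 27.0% of all tested genes in either direction. SFR1 passed in 9 of 10 fits that each left out 1 library, with a highest edgeR adjusted p of 0.1076, and SWI5 in 5 of 10, with a highest of 0.1981. With the block 4 of 16 rose, against 16.3% of tested genes, the added ones being RADX at 1.48 (SE 0.27, edgeR adjusted p = 0.0023), which acts at replication forks and is listed as CXorf57, and HELQ at 0.58 (SE 0.18, edgeR adjusted p = 0.0345), a helicase.

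Break sensing and resection gave 1 of 7 genes higher and 1 lower, against 7.17% and 8.79% of all tested genes, with a median of 0.10. ATM, the kinase that signals double-strand breaks, had 89.0 to 117 CPM in the clones, against 42.8 and 61.4 CPM in PEO1, and was 1.00 higher (SE 0.21, edgeR adjusted p = 0.0155). RAD50, of the MRN complex at broken ends, had 30.8 to 41.6 CPM in the clones, against 48.6 and 68.3 CPM in PEO1, and was at -0.68 (SE 0.20, edgeR adjusted p = 0.0491). Both were separated from PEO1 in every library, as were 27.0% of all tested genes in either direction. ATM passed in 9 of 10 fits that left out 1 library and RAD50 in 1 of 10. With the block, which called 18.2% of tested genes lower, NBN, also of the MRN complex, fell as well, at -0.60 (SE 0.17, edgeR adjusted p = 0.0228).

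Of 10 genes of the BRCA1 complexes 0 passed, against 16.0% of all tested genes, with a median of 0.08. With the block 2 fell, a share near the 18.2% of all tested genes called lower. These were BRCC3, a deubiquitinase of the BRCA1-A complex, at -0.60 (SE 0.21, edgeR adjusted p = 0.0494) and BRIP1, a BRCA1-bound helicase, at -0.59 (SE 0.20, edgeR adjusted p = 0.0462). BAP1 was at 0.40 and BABAM1 at -0.28. Of 11 genes of BRCA2 and PALB2 interactors 0 passed, against 16.0% of all tested genes, with a median of 0.06. With the block, where 16.3% of tested genes were called higher and 18.2% lower, HMG20B rose at 0.61 (SE 0.16, edgeR adjusted p = 0.0167) and BCCIP, a BRCA2-binding protein, fell at -0.84 (SE 0.19, edgeR adjusted p = 0.0082). USP11, a deubiquitinase of PALB2, was at 0.40 and KEAP1 at -0.41, and neither passed in either fit.

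The cells are labelled epithelial, and epithelial markers were lower in the clones. Of 9 epithelial and ovarian carcinoma markers 8 fell, against 8.79% of all tested genes called lower. The 9 summed to 2715 to 3535 CPM in the clones, against 9138 and 13845 CPM in PEO1. EPCAM had 110 ± 36.4 CPM over the clones (SD, n = 4 clones) and 543 ± 0.586 CPM in PEO1 (SD, n = 2 libraries), and PAX8 did not pass. Of the other marker lists, fibroblast markers summed to 6.28 to 27.1 CPM in the clones and 9.50 to 11.1 CPM in PEO1, with DCN, LUM and COL3A1 at 0, and ACTA2 rose. Leukocyte markers summed to 73.1 to 146 CPM in the clones and 40.8 to 53.7 CPM in PEO1. CD68 rose and made up most of the sum, and PTPRC was under 0.3 CPM in every library. With the block, where 16.3% of tested genes were called higher and 18.2% lower, CD14 fell. Its difference was -1.18 (SE 0.27, edgeR adjusted p = 0.0083). Endothelial markers summed to 2.01 to 16.3 CPM in the clones and 15.5 to 62.3 CPM in PEO1. Most of the PEO1 sum was CDH5, which fell. KDR, at most 2.28 CPM in any library, rose with the block, at 2.29 (SE 0.71, edgeR adjusted p = 0.0303). The part of these markers in the values of the 9 genes was not tested.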

How the data were processed

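The deposited file holds whole-number read counts per gene for the 10 libraries; per the submitters' processing notes the tools were TopHat2 2.0.14 and featureCounts 1.4.6 on hg19. The deposited table also gives each gene's exonic length. The labels' protocols name a TruSeq RNA kit that does not record strand, so reads of overlapping genes on opposite strands cannot be told apart. The design text speaks of 15 samples, of which the 10 given here were used, and other libraries were not analysed here.

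Counts were fitted with edgeR 4.0.16 (R 4.3.3, limma 3.58.1): filterByExpr by group, TMM, group means over all 10 libraries, quasi-likelihood F tests, Benjamini-Hochberg adjustment over 16490 genes and a threshold of 0.05. A log2 CPM used a prior count of 2, and RPKM is TMM-scaled CPM per kilobase. The contrasts of single clones share the PEO1 libraries. Replicate numbers were taken to pair libraries because same-numbered deviations correlated at 0.28 to 0.73 over 10 pairs of groups, above 0.1 in each. The biological coefficient of variation was 0.37, or 0.23 with the block, on 5 and 4 residual degrees of freedom. Log2 values are differences between groups unless called levels.

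Named were the 9 members, up to 4 genes per list by adjusted p, the 5 genes nearest to BRCA2 over libraries and those within 1 Mb of it; neighbours of SHFM1 were named after their values were seen. The members and lists were chosen with earlier results of these data known. All 90 list entries used matched and 82 were tested; a further listed gene is not reported here. All 9 members matched a RefSeq promoter, and the first listed for a gene was used. The fits were also tested on simulated data. Figures used matplotlib 3.10.9. DESeq2 1.42.0, limma-voom and other settings are given as alternatives.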

Additional observations from a re-analysis of the deposited data

How the results depend on the processing

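Over all alternatives 1008 values were rated the same, 46 no longer passed, 18 passed newly, 56 moved and 38 reversed. The same meant that direction and side of the threshold were kept, or that a count of genes passing changed little. Tests among clones have no direction, so only the side was rated. Those that moved were counts. Of the 46, 10 each were the balance tests of BRCA1, BARD1, RAD51C and XRCC3, where fewer choices of labels raise the smallest p. With the replicate block the genes passing were 5699 for the mean of the clones (2631 without), 4956 for ABTr1, 3640 for ABTr2, 3722 for ABTr3, 4450 for ABTr4 and 139 among clones. With block and length offset they were 5911, 5380, 3766, 3871, 4528 and 173, and with DESeq2 4072, 3175, 2488, 2526, 3118 and 285. With only the 2 groups compared, the clones gave 699, 78, 659 and 447. Among clones, no filter gave 2 and limma-voom 0, with 874 genes at an unadjusted edgeR p under 0.05. BRCA2 passed with the block at 1.51 and with block and length offset at 1.54, and at no other setting. SHFM1 also missed the threshold with the clone as the unit (-0.77, adjusted p = 0.0652). The balance values under the replicate block stayed 1.99, 1.98, 1.76 and 1.63 for BRCA1, BARD1, RAD51C and XRCC3. Their adjusted p in the exact permutation test was 0.0533, as it was for PALB2 and SHFM1, and fewer choices of labels raise the smallest p. The block changed no call of another member in the mean of the clones. BARD1 in ABTr3 reversed with RLE (-0.0071), no filter (-0.020), the block (-0.031), block and offset (-0.0092), limma-voom (-0.0088) and DESeq2 (-0.0071). RAD51C in ABTr4 reversed with no filter (-0.0064), the offset (-0.087) and block and offset (-0.104), and XRCC3 in the mean with the clone as the unit (0.094); none of these passed.

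Leaving out 1 library gave 918 to 2527 genes for the mean of the clones, 221 to 1559 for ABTr1, 251 to 1028 for ABTr2, 81 to 1256 for ABTr3, 453 to 1594 for ABTr4 and 0 to 1 among clones. The balance ranged over 1.504 to 2.48 for BRCA1, 1.36 to 2.60 for BARD1, 1.23 to 2.29 for RAD51C, 1.07 to 2.18 for XRCC3, 1.42 to 3.09 for SHFM1, which passed without ABTr2 replicate 2, and -0.11 to 1.85 for RAD51D. The differences ranged in ABTr1 over -1.41 to 0.0083 for BRCA1. In ABTr2 they ranged over -1.96 to 0.28 for BARD1, -0.23 to 2.58 for BRCA2, -0.26 to 0.36 for PALB2, -1.04 to 0.058 for RAD51C and -1.37 to 0.48 for XRCC3. In ABTr3 the ranges were -0.37 to 0.31 for BARD1, -0.59 to 0.13 for BRCA1, -0.50 to 0.13 for RAD51C and -0.0068 to 0.58 for XRCC3. In ABTr4 they were -1.07 to 0.31 for BARD1, -0.91 to 0.25 for BRCA1, -0.31 to 0.34 for RAD51C and -0.45 to 0.61 for XRCC3. For the mean they were -0.55 to 0.069 for RAD51C and -0.35 to 0.26 for XRCC3. The negative BRCA2 value came without ABTr2 replicate 1. Each group had 2 libraries, which limits the precision of every value, and causes of the reversals were not tested.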
